A study of Drosophila melanogaster with 2 samples.

Results

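Tubulins, microtubule motors and axoneme genes were examined in whole adult Drosophila melanogaster females that had been sprayed with ethanol or with water. The genes were taken by the start of their current symbol (alphaTub, betaTub, gammaTub, Klp, Khc, Dhc, Dnah, Dnai, Dnal, Dlic, robl, Rsph, Tektin, Mst with a digit, S-Lap, IFT or Grip), a rule that was set with earlier results of these data known. This gave 13 of the 2377 genes that the arrays could name. They were alphaTub84D, alphaTub85E, betaTub65B, betaTub85D, gammaTub37C, Grip71, Klp10A, Klp98A, Rsph3, Tektin-C, IFT46, Mst84B and S-Lap7. No gene under the 7 prefixes Khc, Dhc, Dnah, Dnai, Dnal, Dlic and robl was among the named spots.

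The ethanol group received a 2 mL mist of 99% ethanol from a Potter tower (an apparatus that lets a fine spray settle evenly), and the water group an equal mist of distilled water. All flies were Oregon-R, a wild-type laboratory strain, aged 4 to 10 days, and each RNA extract pooled about 240 of them. The interval before sampling is 4 h in the series text but 6 h in the label of replicate 1. Each of 2 spotted arrays carried 1 ethanol and 1 water extract, with ethanol in Cy3 on array 1 and in Cy5 on array 2, so replicate and dye cannot be told apart.

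Each value is 1 deposited log ratio per spot, read as log2, for which neither the base nor the direction is given in the sources used here. A positive ratio is therefore not assigned to ethanol or to water. Values are given per array, and means under both readings, with the arrays running the same way as deposited and with array 2 turned in sign. The second reading is the right one if the ratios are Cy5 over Cy3. In whole flies, fewer cells of a type and less RNA per cell cannot be told apart. A ratio carries no level, so the files do not show how strongly a testis gene was expressed in these females.

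Microtubules are polymers of alpha- and beta-tubulin dimers, seeded by gamma-tubulin ring complexes and used as tracks by kinesin and dynein motors. In cilia and sperm tails they form the axoneme, a bundle of doublet microtubules joined by dynein arms and radial spokes. In the fly, axonemes are found in sperm and in ciliated sensory neurons such as those of the chordotonal organs, the stretch and hearing receptors.

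In limma, none of the 13 genes had a mean ratio that differed from 0 at an adjusted p of 0.05, the lowest among them being 0.27 (Benjamini-Hochberg adjustment across 2377 genes). Over all genes 0 were called too, or 0% under either reading. At an unadjusted p under 0.05, limma counted 3 of the 13 as deposited (alphaTub85E, Rsph3 and Mst84B), beside 5.72% of all genes. With array 2 turned it counted 1 (alphaTub85E), beside 4% of all genes. A permutation of signs over 2 arrays cannot give a two-sided p below 0.5.

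The 2 largest values among the 13 genes were those of alphaTub85E on array 1 and of Rsph3 on array 1. Past 1.5-fold on array 1 were 2 of the 13, alphaTub85E and Rsph3, beside 6.14% of all genes. Another pair, Rsph3 and Klp10A, passed on array 2, beside 4.75% of all genes. As deposited, Rsph3 alone passed on both arrays with one sign, beside 0.126% of all genes. In the turned reading 0 of the 13 did, again beside 0.126%. The count was also 0 with each array centred on its median and among clones whose spots agreed. The other 10 were under 1.5-fold on both arrays.

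**Figure D1:**
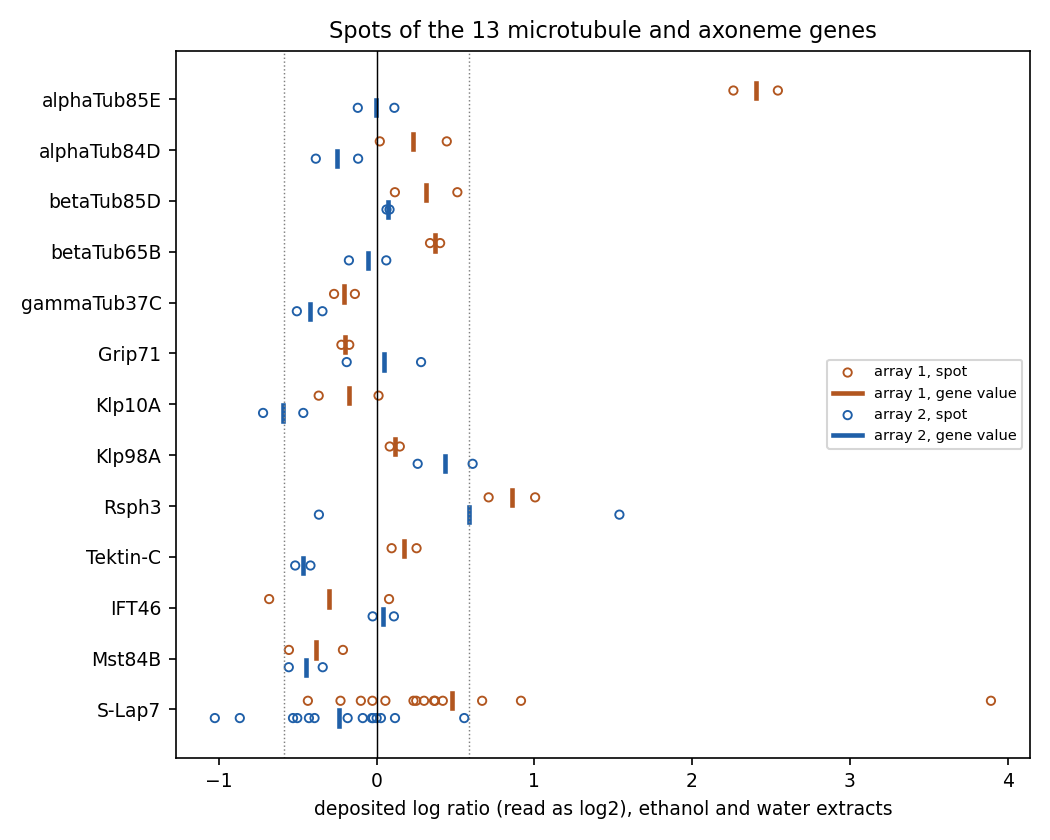
Deposited log ratios (read as log2) of every spot of the 13 genes, with array 1 above array 2 in each row. Open circles are spots, thick bars the gene value after averaging spots and clones, and dotted lines 1.5-fold. The spots of alphaTub85E lie at 2.26 and 2.54 on array 1 and around 0 on array 2.

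The alpha-tubulins are one partner of the dimer from which microtubules are built. alphaTub85E encodes a minor alpha-tubulin, known from developing muscle, the support cells of chordotonal organs and the somatic cells of the testis. Its adjacent spots gave 2.26 and 2.54 on array 1, against 0.11 and -0.12 on array 2. Spots agreed within each array, and the arrays did not overlap. The gene value was 2.40 on array 1, a 5.29-fold ratio (11.1-fold if the values are natural logs), and -0.0032 on array 2. By size it ranked 9 of 2377 genes on array 1 and 2358 on array 2.

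The mean of alphaTub85E was 1.2 ± 1.70 (SD, n = 2), with a limma 95% interval of 0.44 to 1.96 and an adjusted p of 0.32. With array 2 turned the mean was again 1.2 (adjusted p = 0.94), since a value near 0 has no sign to turn. The mean thus rests on array 1. Among the 1536 genes with a clone whose spots differed by at most 0.5 on both arrays (concordant clones), limma called it under both readings, at adjusted p = 4.76e-06 as deposited and 1.38e-05 with array 2 turned. The background of calls was 0.326% of genes as deposited and 0.195% with array 2 turned. In both fits the prior degrees of freedom were infinite, so the test did not use the gene's own spread of 1.70. Over 10 alternative settings the adjusted p of alphaTub85E ran from 4.76e-06 to 0.996, and 3 of them called it. The third call came without clones holding a spot over 3, a fit with 76.79 prior degrees of freedom. The clones listed just before and after it were at -0.25 and -0.66 on array 1, of the opposite sign, and at -0.10 and -0.52 on array 2. Effects of position on the array were not tested.

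alphaTub84D encodes a widely expressed alpha-tubulin. Its spots gave 0.44 and 0.020 on array 1, against -0.12 and -0.39 on array 2. The signs were opposite, and the mean was -0.0093 ± 0.34 as deposited and 0.24 with array 2 turned (limma adjusted p = 0.996 and 0.95). Of the alpha-tubulins, alphaTub85E alone was past 1.5-fold on array 1, and neither was on array 2. Alpha-tubulin genes are similar in sequence, and hybridisation between family members was not tested.

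Of the beta-tubulins, betaTub85D is the testis-specific partner needed for meiosis and for the sperm axoneme. Its spots gave 0.51 and 0.12 on array 1, against 0.082 and 0.063 on array 2. All 4 were positive, and the mean was 0.19 ± 0.17 as deposited and 0.12 with array 2 turned. The clone listed just before betaTub85D was at 1.84 on array 1 and -0.052 on array 2, and the clone after it at 0.037 and -0.29. betaTub65B, another beta-tubulin, was at 0.40 and 0.34 on array 1, against -0.18 and 0.061 on array 2. Its gene values of 0.37 and -0.057 gave a mean of 0.16 ± 0.30 as deposited and 0.21 with array 2 turned. Neither gene passed the test (limma adjusted p = 0.996 for each as deposited, 0.99 and 0.96 with array 2 turned).

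gammaTub37C is the gamma-tubulin of the female germ line, which organises the meiotic spindle of the oocyte and the first divisions of the embryo. All 4 of its spots were negative, at -0.14 and -0.27 on array 1 and -0.34 and -0.51 on array 2. The mean was -0.31 ± 0.16 as deposited, with a limma 95% interval of -0.72 to 0.093 (adjusted p = 0.996), and 0.11 with array 2 turned (0.99). The ovary marker yl, the yolk protein receptor, was also negative on both arrays, at -0.091 and -0.18. It was the only 1 of 24 listed ovary and egg markers that the arrays named, and its part in the value of gammaTub37C was not tested.

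Over the 5 tubulins, 4 were positive on array 1 and 4 negative on array 2, with medians of 0.31 and -0.057. Without alphaTub85E the medians were 0.27 and -0.15. Over all 2377 genes, 1213 were positive on array 1 and 1153 negative on array 2, with medians of 0.0089 and 0.010.

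Grip71 encodes a subunit that recruits the gamma-tubulin ring complex. It was at -0.22 and -0.17 on array 1, against 0.28 and -0.19 on array 2. The spots of array 2 had opposite signs, and the mean was -0.076 ± 0.17 as deposited and -0.12 with array 2 turned, neither of which passed the test (limma adjusted p = 0.996 as deposited).

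The motors were represented by 2 kinesins. Klp10A, a kinesin-13 that takes tubulin off microtubule ends at the spindle, was at 0.012 and -0.37 on array 1, against -0.46 and -0.72 on array 2. Its array 2 value of -0.59 was 1.51-fold from equality and ranked 106 by size. The mean was -0.38 ± 0.29 as deposited (limma 95% interval -0.80 to 0.033, adjusted p = 0.91) and 0.21 with array 2 turned (0.96).

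Klp98A, a kinesin-3 that moves endosomes, was positive in all 4 spots, at 0.083 and 0.15 on array 1 and 0.26 and 0.61 on array 2. Its mean was 0.27 ± 0.23 as deposited and -0.16 with array 2 turned (limma adjusted p = 0.996 and 0.98). The clone listed just after Klp98A was also positive, at 0.59 on array 1 and 0.43 on array 2. The clone before it was at -0.028 and -0.031. As deposited, the kinesins therefore lay on opposite sides of 0 on each array, at -0.18 and 0.12 on array 1 and -0.59 and 0.43 on array 2.

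**Figure D2:**
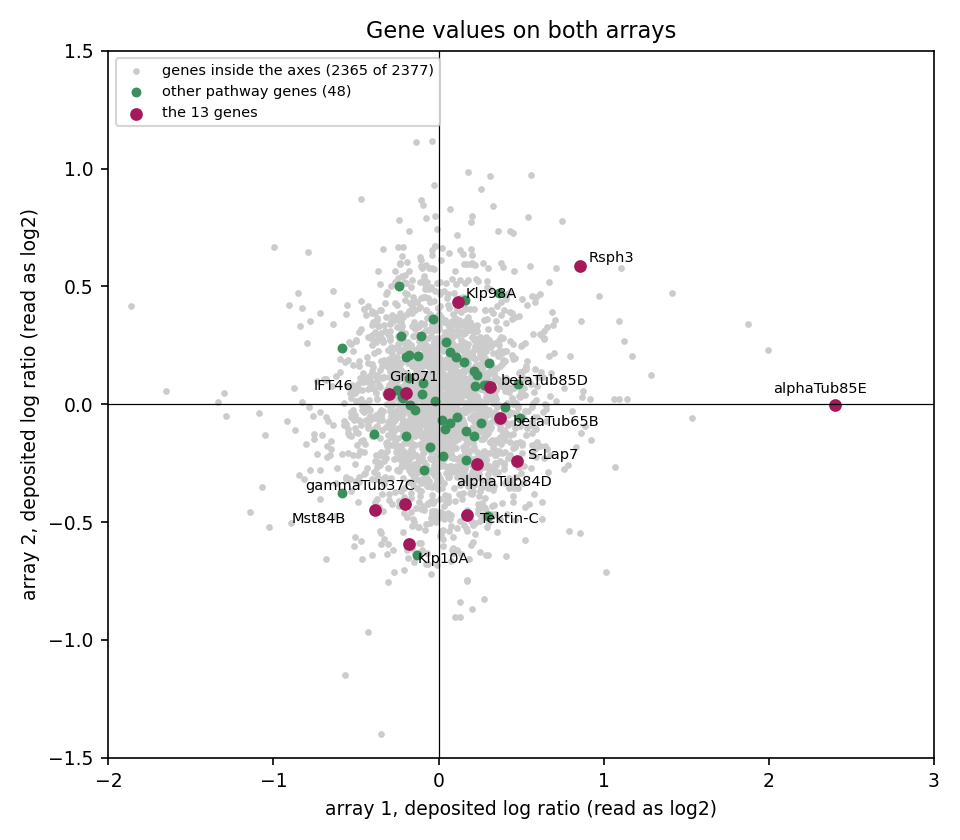
Gene values on array 1 (horizontal) and array 2 (vertical), both as deposited log ratios read as log2, for 2365 of 2377 genes (grey), 48 genes of the other microtubule and axoneme list (green) and the 13 genes (purple, named). The 48 include Dic1, lost and tomboy20, which entered that list by name only. alphaTub85E lies far out along array 1 at 2.40 and at -0.0032 on array 2, while Rsph3 is positive on both.

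Among axoneme genes, Rsph3 encodes a protein of the radial spoke, the structure that links the doublets to the centre of the axoneme. Its spots gave 1.01 and 0.71 on array 1, against -0.37 and 1.54 on array 2. The array 2 spots differed by 1.91, the widest difference among the 19 clones of these genes on that array. Averaged, the values were 0.86 and 0.59, which is 1.81-fold on array 1 and 1.5-fold on array 2.

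The mean of Rsph3 was 0.72 ± 0.19 as deposited, ranking 27 of 2377 by size, with a limma 95% interval of 0.31 to 1.13 (adjusted p = 0.27). The small SD between arrays does not show the disagreement of the array 2 spots. With array 2 turned the mean was 0.14 (adjusted p = 0.99), and among concordant clones the gene had none. Over 8 alternative settings its adjusted p ran from 0.093 to 0.99.

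Tektin-C, a filament protein of the doublet wall, had concordant spots on each array, at 0.25 and 0.095 on array 1 and -0.52 and -0.42 on array 2. The arrays did not overlap and were opposite in sign. The mean was -0.15 ± 0.45 as deposited and 0.32 with array 2 turned, with an interval of -0.090 to 0.73 in the second case (limma adjusted p = 0.996 and 0.94).

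IFT46, of the intraflagellar transport particle that carries building material along a growing cilium, was at 0.079 and -0.68 on array 1, against 0.11 and -0.025 on array 2. Its spots disagreed in sign on both arrays, and the mean was -0.13 ± 0.24 as deposited and -0.17 with array 2 turned (limma adjusted p = 0.996 and 0.96). Mst84B, a male-specific transcript of the testis, was negative in all 4 spots, at -0.56 and -0.21 on array 1 and -0.56 and -0.34 on array 2. Its gene values of -0.38 and -0.45 were the closest pair between arrays among the 13 genes as deposited. In the turned reading the closest pair was that of alphaTub84D, at 0.23 on array 1 and 0.25 in size on array 2. The mean was -0.42 ± 0.05 as deposited (unadjusted p = 0.0435, limma adjusted p = 0.82) and 0.032 with array 2 turned (0.99).

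S-Lap7 encodes a leucyl aminopeptidase of the sperm tail, and was the only one of the 13 genes with more than 1 clone. Its 7 clones gave repeated values under the same gene name within an array. On array 1 the lowest clone mean was -0.13 and the highest 2.10, with 5 of 7 above 0. On array 2 the lowest was -0.68 and the highest 0.29, with 6 of 7 below 0. The arrays overlapped. The clone at 2.10 had array 1 spots of 3.89 and 0.30, a difference of 3.59, and its neighbours were at 0.17 and -0.85.

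The gene value of S-Lap7 was 0.48 on array 1 and -0.24 on array 2, a mean of 0.12 ± 0.51 as deposited and 0.36 with array 2 turned (limma adjusted p = 0.996 and 0.94). Without the clone at 2.10 the array values were 0.21 and -0.18, from 6 clones. The SD over clones of this gene was 0.78 on array 1 and 0.33 on array 2, and 0.34 and 0.32 without that clone. Among 14 genes with 5 or more clones the median SD was 0.32 and 0.28. Clones of 1 gene on 1 array share their RNA and dye, so they show the precision of a gene value, not replication of the treatment. The other 12 genes rest on 1 clone each.

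**Figure D3:**
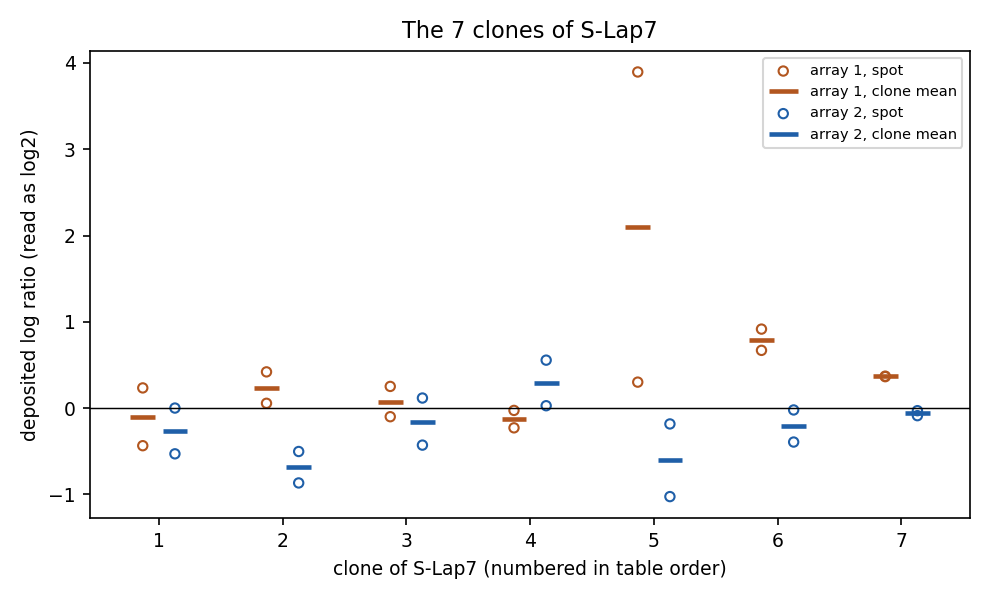
Deposited log ratios (read as log2) of the 7 clones of S-Lap7, numbered in table order, with array 1 left of array 2 for each clone. Circles are spots and bars clone means. The fifth clone holds a spot at 3.89 on array 1 beside one at 0.30.

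The median difference between adjacent spots was 0.295 on array 1 and 0.27 on array 2 for the 19 clones, beside 0.17 and 0.33 for 2833 named clones. Spots of these clones were thus farther apart than those of named clones on array 1, and closer on array 2. In 13 of the 19 clones (68.4%) the spots differed by at most 0.5 on both arrays, beside 60.6% of named clones. These values pool clones unevenly over genes, since 7 of the 19 are clones of S-Lap7, of which 3 met this limit. The unadjusted 95% intervals of the 13 means reached a median of 0.41 to either side, and the adjusted test did not call means as large as 0.72 (Rsph3) or 1.2 (alphaTub85E). Precision is limited by having 2 arrays.

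The 13 genes were split by symbol into a general list and a testis or cilium list. The general list is a broad class, since it holds gammaTub37C of the female germ line and alphaTub85E, which is known from a few tissues. Its 6 genes were alphaTub84D, alphaTub85E, gammaTub37C, Grip71, Klp10A and Klp98A, with medians of -0.031 on array 1 and -0.13 on array 2. The 6 testis or cilium genes were betaTub85D, Rsph3, Tektin-C, IFT46, Mst84B and S-Lap7, with medians of 0.24 and -0.099. betaTub65B was in neither list. The median of the means was -0.043 for the general and -0.0055 for the testis or cilium genes as deposited, and 0.16 and 0.13 with array 2 turned. Over all genes it was 0.0066 and 0.0023. With alphaTub85E counted among the testis or cilium genes instead, the medians as deposited were -0.076 for the general and 0.12 for the testis or cilium genes, so the second turned sign with the class of 1 gene. Neither class stood to one side of 0 as a whole as deposited: general genes were positive on both arrays in 1 case and negative in 2, and testis or cilium genes positive in 2 and negative in 1.

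Across all 13 as deposited, Klp98A, Rsph3 and betaTub85D were positive on both arrays, beside 26.6% of all genes. Klp10A, Mst84B and gammaTub37C were negative on both, beside 24.1%. The other 7 had opposite signs, beside 49.3%. With array 2 turned, 5 were positive on both arrays, beside 24.4% of all genes, and 2 negative on both, beside 24.9%. The sign of the mean changed between readings for 6 of the 13: alphaTub84D, gammaTub37C, Klp10A, Klp98A, Tektin-C and Mst84B. The median size of a gene value was 0.30 on array 1 and 0.25 on array 2, beside 0.19 and 0.17 for all genes.

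**Figure D4:**
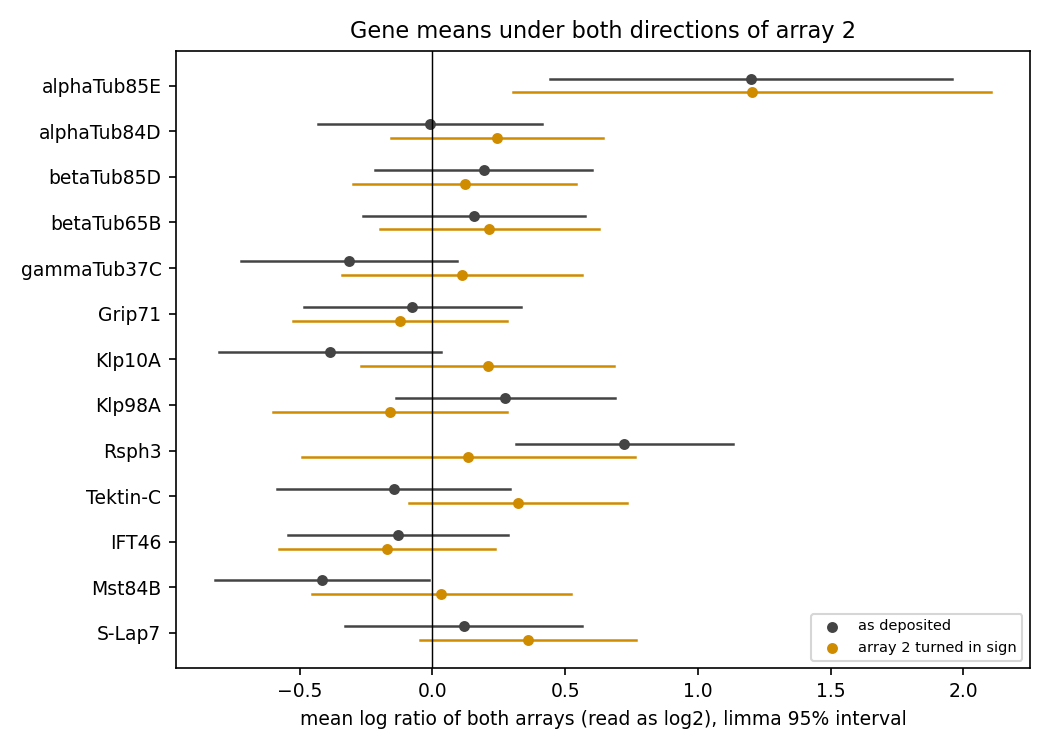
Mean log ratio of both arrays (read as log2) with limma's 95% interval for each of the 13 genes, as deposited (grey, upper) and with array 2 turned in sign (yellow, lower). As deposited 3 intervals are clear of 0 (alphaTub85E, Rsph3 and Mst84B), and with array 2 turned 1 is (alphaTub85E).

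Other genes that build, fold or move microtubules were read from a separate list of 199 symbols, of which 48 were measured. None was called under either reading (limma, lowest adjusted p 0.72 as deposited and 0.94 with array 2 turned). At an unadjusted p under 0.05 limma counted 2 as deposited and 0 with array 2 turned, beside 5.72% and 4% of all genes. Of the 48 as deposited, 13 were positive on both arrays, 8 negative on both and 27 opposite in sign, beside 26.6%, 24.1% and 49.3% of all genes. In the turned reading 12 were positive and 15 negative on both, beside 24.4% and 24.9%. Their medians were 0.023 on array 1 and 0.053 on array 2. Dic1, lost and tomboy20 entered by name although they encode a mitochondrial carrier, an RNA localisation factor and a mitochondrial import receptor. Without them the medians of the other 45 were 0.018 and 0.078. Of these 45 as deposited, 13 were positive on both arrays, 7 negative on both and 25 opposite in sign.

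Tbca, the chaperone that holds beta-tubulin before dimer assembly, had the mean farthest from 0 as deposited. It was at -0.59 on array 1 and -0.38 on array 2, a mean of -0.48 ± 0.15 (unadjusted p = 0.0232, limma adjusted p = 0.72) and -0.10 with array 2 turned. Of the 15 measured folding and modification genes, 5 were positive and 2 negative on both arrays as deposited, beside 26.6% and 24.1% of all genes. The chaperonin subunit CCT1, which folds newly made tubulin, was at 0.30 and 0.18, and the subunit CCT8 at 0.27 and 0.083. Other subunits lay near 0 with opposite signs: CCT2 (0.037 and -0.10), CCT4 (0.072 and -0.078) and CCT5 (-0.024 and 0.015).

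milt encodes the adaptor that ties kinesin to mitochondria. It was at 0.37 and 0.47, a mean of 0.42 ± 0.07 (unadjusted p = 0.0424, limma adjusted p = 0.81) and -0.051 with array 2 turned. Its partner on the mitochondrial surface, Miro, was at 0.49 on array 1 and -0.058 on array 2. ens, a microtubule-binding cofactor of kinesin, was at 0.48 and 0.086, and ana2, which acts in centriole duplication, at -0.39 and -0.12. The 6 measured dynein and dynactin genes lay between -0.22 and 0.16 on array 1, and between -0.22 and 0.22 on array 2. That was the narrowest array 1 range among the lists of more than 4 genes. It was also the shortest of those lists, and a range tends to widen with more genes.

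The 13 measured genes listed under intraflagellar transport, axoneme and sperm tail include Dic1, lost and tomboy20. The other 10 had medians of 0.090 on array 1 and 0.0056 on array 2. Of these, 7 were opposite in sign, beside 49.3% of all genes. With the 3 included the medians were 0.11 and -0.055, so the array 2 sign rests on genes of other functions. dj, which encodes a sperm tail protein, was at 0.16 and 0.44, and tomboy20 at -0.13 and -0.64. soti, a spermatid gene, was at -0.59 and 0.24, a mean of -0.41 with array 2 turned (limma adjusted p = 0.94), the farthest from 0 of the 48 in that reading. The chaperonin subunits, Miro, soti and Cep135, a centriole gene, were named after their values were seen.

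**Figure D5:**
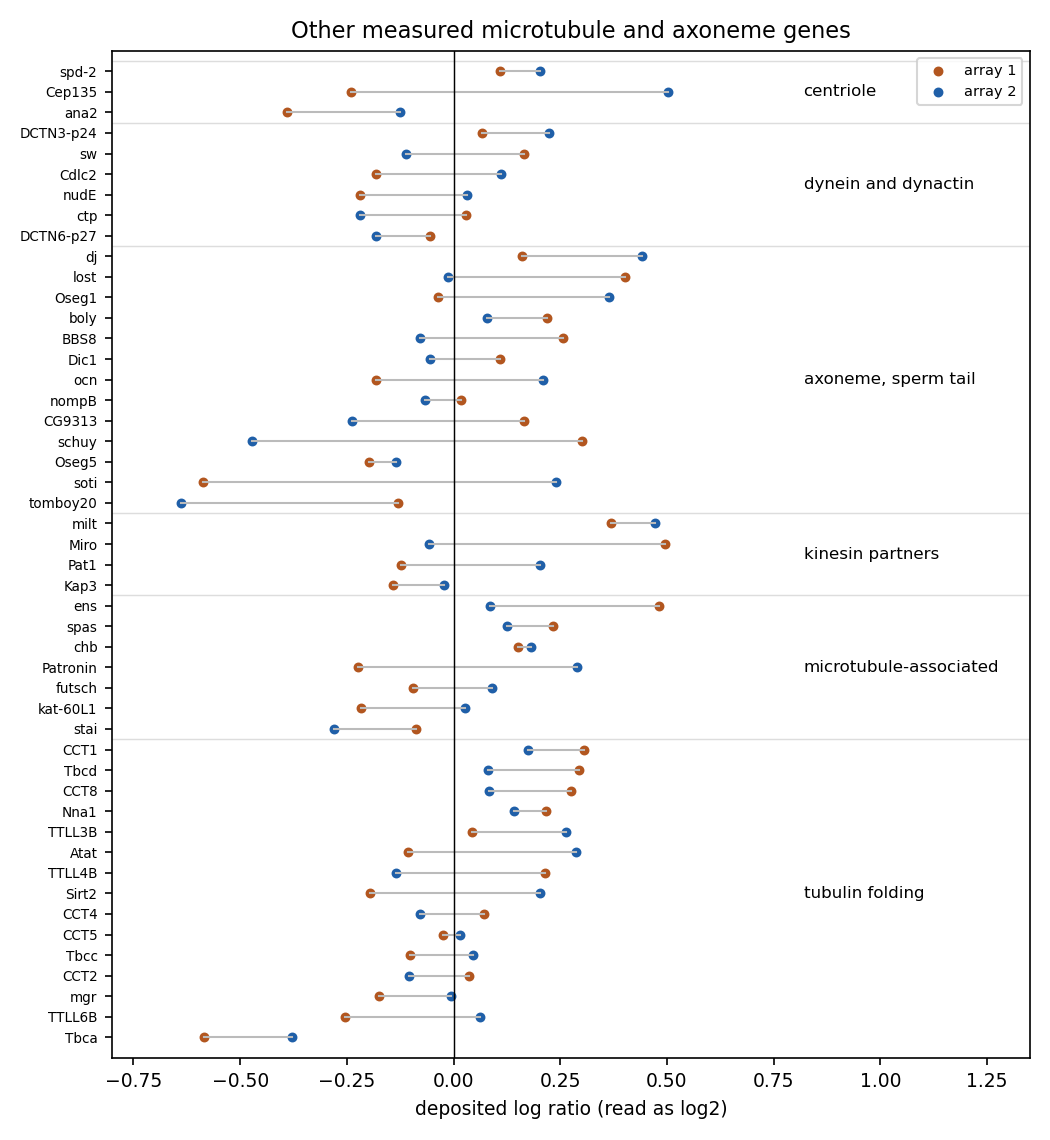
Deposited log ratios (read as log2) of the 48 measured genes of the other microtubule and axoneme list, grouped by listed role, with array 1 and array 2 as separate points joined by a line. Dic1, lost and tomboy20 entered by name only. Tbca is negative and milt positive on both arrays, while soti and Cep135 lie on opposite sides of 0.

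Markers of other male and sensory cells were few. Of 15 listed accessory gland genes 1 was named, the seminal protein gene Acp36DE, at 0.66 and 0.33. Of 15 testis markers 2 were named, dj and ocn, the second at -0.18 and 0.21. Of 10 markers of ciliated neurons 1 was named, nompB, an intraflagellar transport gene, at 0.018 and -0.067. The extracts were of whole females, which have no testis or male accessory gland of their own. The part of ciliated neurons, or of any other cells, in the values of Rsph3, Mst84B or S-Lap7 was not tested.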

How the data were processed

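Whole-fly RNA (80 µg per labelling) was compared on 2 two-colour spotted arrays. Each spot of each array has 1 signed value, deposited by the authors as a log ratio and taken here as log2. How background was corrected, how arrays were normalized, the log base and the direction are not given in these sources, and spot intensities were not analysed. The medians of -0.0009 and 0.0002 are close to 0.

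Adjacent spots of the 16896 were taken as 8448 clones. Spots with 1 symbol (5666) were named through Entrez identifiers in the platform annotation and RefSeq. Spots with several (152) or none (11078) were left out. Spots of a clone, then clones of a gene, were averaged.

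limma 3.58.1 (R 4.3.3) tested the mean ratio against 0 with lmFit and eBayes, and p was adjusted by Benjamini-Hochberg over 2377 genes. No dye term could be fitted. The test was checked on simulated data, where it also called some unchanged genes of wide ratios. Errors are SDs over 2 arrays. Whether the extracts came from separate cultures is stated only as biological replication in the series text.

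The members, lists and tests were chosen with earlier results of these data known. Spot values were given for genes past 1.5-fold on both arrays and for the 4 of largest mean in each role, which covered all 13. From the other list, genes at an unadjusted p under 0.05 and 4 more of largest mean were named.

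Alternatives were array 2 turned in sign, spot medians, centring, scaling, natural logs, robust eBayes, filters on spots, other thresholds and each array alone. Both filters with array 2 turned, a fit over all clones and S-Lap7 without its widest clone were added after seeing the data.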

Additional observations from a re-analysis of the deposited data

How the results depend on the processing

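No member was called by limma, and the count stayed at 0 with array 2 turned, spot medians, centring, scaling, natural logs and robust eBayes. It was 1 (alphaTub85E) among concordant clones, without clones holding a spot over 3, and among concordant clones with array 2 turned, where all genes gave 5, 8 and 3 calls. Without the wide spots and with array 2 turned it was 0 again. In the main and filtered fits the mean of alphaTub85E was 1.2 under both readings, while the prior degrees of freedom differed. The more there are, the less the test uses a gene's own spread. They were 14.78 as reported and infinite among concordant clones under both readings. Without the wide spots they were 76.79, and 19.87 when array 2 was also turned. Why the array 1 value was high was not tested. The count of members past 1.5-fold, with one sign, on both arrays, 1 as reported (Rsph3), was 0 with array 2 turned, with centring, among concordant clones, with either filter and array 2 turned, and at 2-fold. It was 2 at a threshold of 0.32 on the log2 scale (Mst84B joined Rsph3), and 2 to 2 on 1 array alone. With array 2 turned, means changed sign for Klp10A (0.21), Klp98A (-0.16), Mst84B (0.032), Tektin-C (0.32), alphaTub84D (0.24) and gammaTub37C (0.11), also under both filters, and none of these passed. The median of the means of the general genes moved to 0.16 with array 2 turned, with or without a filter. That of the members moved to 0.21 among concordant clones with array 2 turned, where Rsph3 and IFT46 had no clone and dropped out. On 1 array alone these medians ran from -0.057 to 0.17 for all 13, from -0.13 to -0.031 for general and from -0.099 to 0.24 for testis or cilium genes. The other 48 pathway genes gave 0 calls under every setting run. Each array's ratio pairs its ethanol and water extracts, so the test is itself paired and no other block was fitted. Signal over background was not analysed here, so its limit is unknown.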

Other observations

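Another 6 clones carried several symbols, at least 1 of them under the Mst prefix, and were left out of the gene values. They fell into 3 sets of 2 clones, each set annotated to the same symbols, and no single gene is named for them. In 1 set all 8 spot values were positive. Its first clone had spots of 0.50 and 0.42 on array 1 and 0.45 and 0.60 on array 2, and its second 0.45 and 2.66 on array 1 and 0.31 and 0.52 on array 2. In a fit over all 8448 clones their means were 0.49 ± 0.05 and 0.98 ± 0.81 (limma adjusted p = 0.97 and 0.44), and -0.033 and 0.57 with array 2 turned (0.99 and 0.92). In another set all 4 spots were negative on array 1 (-0.42, -0.42, -0.27 and -0.098) and all 4 positive on array 2 (0.15, 0.31, 0.31 and 0.11). The third set had spots of both signs on both arrays in 1 clone and on array 2 in the other. In the same fit, alphaTub85E had an adjusted p of 0.54 as deposited and 0.85 with array 2 turned.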
